A study of Homo sapiens with 9 samples.

Results

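Cells of the human embryonic kidney line HEK293 that carried a hairpin RNA against AMOT were set directly against HEK293 cells that carried a hairpin RNA against YAP1, the gene of the protein YAP. The comparison used 6 of the 9 bead arrays of the series, 3 from AMOT hairpin cells and 3 from YAP hairpin cells. The 3 wild-type arrays, of cells with no hairpin in their labels, were kept out of the normalization and of the test. All arrays were labelled with biotin from total RNA. The sample titles call both hairpin groups knockouts, their sources name an Amot shRNA or a Yap shRNA added to HEK293 cells, and the design text speaks of knockdown. Both groups carry a hairpin, no label names a control hairpin, and traits of a single hairpin or line cannot be told apart from the lowering of its target. The sources used here do not give the number of hairpins or clones behind each group, how they were delivered or when cells were collected. Each group came from 3 individual experiments per the design text, with no word on separate cultures, so p-values measure the spread between these arrays. HEK293 cells carry adenoviral genes whose products bind p53, which limits the line as a model of p53 activity.

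Angiomotin, the product of AMOT, is a scaffold protein of cell junctions and the actin cytoskeleton that binds YAP. YAP is a transcriptional coactivator that works with the DNA-binding TEAD factors, and the Hippo kinases hold it out of the nucleus by phosphorylation. Genes such as CCN1, CCN2 and ANKRD1 are commonly read as reporters of YAP and TEAD activity.

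Of 47231 probes on the array, 21238 had a detection p under 0.05 on at least 3 of the 6 arrays and were tested. A named gene symbol was available for 15058 of them, covering 11375 genes, and 6180 probes (29.1%) stayed unnamed. Raw median signals lay between 175 and 185 in AMOT hairpin arrays and between 180 and 184 in YAP hairpin arrays. Detected probes numbered 20827 to 22187 in AMOT hairpin arrays and 20866 to 21709 in YAP hairpin arrays. The first principal component held 57.3% of the variance and parted the groups, and the next held 13.7%. No array stood apart from its group: mean correlations across probes were about 0.992 within a group and 0.981 between the groups. Of the kidney lineage markers of HEK293, 8 of 14 were measured, against 0 of 10 endothelial, 2 of 10 leukocyte and 3 of 10 fibroblast markers. The leukocyte markers measured were CD14, called higher in AMOT hairpin cells by 0.64 on the log2 scale, and CD68, which stood at 0.00 and was not called. PTPRC, the common leukocyte antigen, had no named probe past the filter. In RNA from whole cultures, fewer cells expressing a gene and less RNA per cell cannot be told apart.

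The hairpin targets were compared first, since they check the labels. AMOT lies on chromosome X (112774877 to 112840831 in GRCh38.p14). It had log2 signals of 9.91, 10.01 and 10.17 in AMOT hairpin cells, against 13.59, 13.65 and 13.69 in YAP hairpin cells. The 2 groups lay far apart, with no overlap. The mean was 12.2-fold lower in AMOT hairpin cells (log2 difference -3.61, SE 0.10, n = 3 arrays per group, limma adjusted p = 6.9e-06). YAP1 lies on chromosome 11 (102110447 to 102233424) and gave log2 signals of 10.43, 10.47 and 10.68 in AMOT hairpin cells and 8.78, 8.78 and 8.91 in YAP hairpin cells. It was 3.25-fold higher in AMOT hairpin cells (log2 difference 1.70, SE 0.10, limma adjusted p = 2.8e-04). Each target was thus lower on all 3 arrays of the group labelled with its hairpin than on any array of the other group, and each was still detected on all 6 arrays. Each gene had 1 named probe.

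Between the hairpin groups 4056 of the 21238 probes (19.1%) passed limma's moderated 2-sided test at a Benjamini-Hochberg adjusted p under 0.05. Of these, 2005 (9.44% of the probes) were higher in AMOT hairpin cells and 2051 (9.66%) were lower. A difference of at least 2-fold beside that threshold was reached by 229 probes that were higher (1.08%) and 219 that were lower (1.03%). Past 4-fold there were 9 higher and 31 lower probes, so the largest differences lay mostly on the side of genes lower in AMOT hairpin cells. Most calls were small: the median absolute log2 difference of the called probes was 0.58, with a median SE of 0.12 over all probes tested. With each gene taken by its brightest probe, 2638 of 11375 genes were called (23.2%), 1239 higher (10.9%) and 1399 lower (12.3%). All 4056 called probes had groups that did not overlap, as did 8263 of all 21238 (38.9%). The balance of the calls depended on the scaling: quantile normalization put 49.4% of them on the higher side, and median scaling put 35.9% there, with 1098 higher and 1960 lower.

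**Figure D1:**
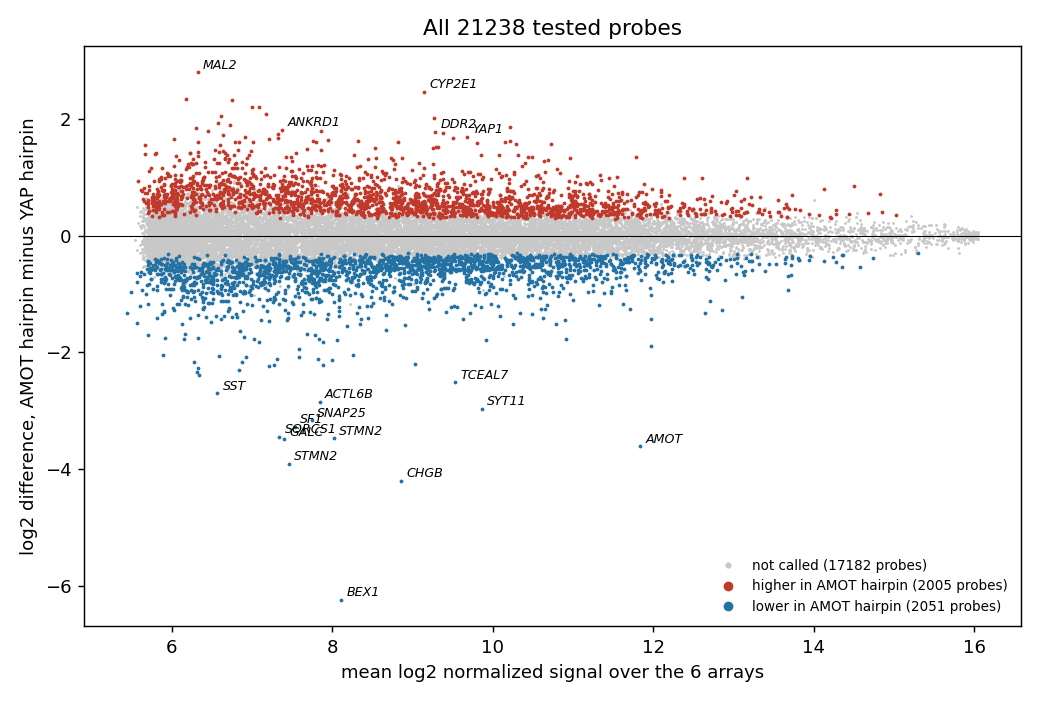
Log2 difference, AMOT hairpin minus YAP hairpin (vertical axis), against the mean log2 normalized signal over the 6 arrays (horizontal axis), 1 point a probe for all 21238 tested probes. The 2005 probes called higher and the 2051 called lower in AMOT hairpin cells are coloured, and the longest tail runs downwards to CHGB, STMN2, AMOT and 1 probe of BEX1.

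The stretches upstream of CCN2 and ANKRD1 are shown because they are the called YAP and TEAD reporter genes with a TEAD motif in the window searched. The letters GGAATG, the core of the TEAD motif, or CATTCC on the other strand, were looked for in the 250 bases before each gene's start, from RefSeq's promoters of GRCh38.p14. They stood in 11.9% of all 35116 promoters and in 9.1% of the 9167 tested genes that had an entry. Of the 13 measured reporter genes, 8 had an entry and 4 of these held the motif, among them FOXF2 and PTPN14 with 1 match each. CCN2 held 3 matches, starting 169, 104 and 95 bases before its start, and ANKRD1 held 2, at 220 and 128 bases. Both stretches are printed 5′ to 3′ on the minus strand, with the matches in capitals, CCN2 at chr6:131951437-131951566 and ANKRD1 at chr10:90921185-90921332.
CCN2: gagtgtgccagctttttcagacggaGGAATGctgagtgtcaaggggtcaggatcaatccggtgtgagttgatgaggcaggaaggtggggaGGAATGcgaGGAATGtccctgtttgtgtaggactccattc
ANKRD1: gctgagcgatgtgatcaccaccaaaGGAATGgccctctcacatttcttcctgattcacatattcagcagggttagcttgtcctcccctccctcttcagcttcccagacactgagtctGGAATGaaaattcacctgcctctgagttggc
A match of letters describes the sequence and does not show that a TEAD factor binds there.

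Among the 13 measured YAP and TEAD reporter genes, 4 were higher in AMOT hairpin cells, 1 was lower and 8 were not called (38.5% called, against 23.2% of all genes). ANKRD1, a nuclear ankyrin-repeat protein best known from muscle, had log2 signals of 8.47, 8.13 and 8.24 in AMOT hairpin cells and 6.28, 6.61 and 6.50 in YAP hairpin cells. Its mean was 3.52-fold higher in AMOT hairpin cells (log2 difference 1.82, SE 0.13, limma adjusted p = 4.2e-04). CCN2, a secreted matricellular protein, had 8.65, 8.44 and 8.19 in AMOT hairpin cells and 7.25, 7.24 and 7.16 in YAP hairpin cells, a log2 difference of 1.21 (SE 0.13). Its other probe, also detected on all 6 arrays, stood at 0.51 and was not called (limma adjusted p = 0.094). The other matricellular gene of the list, CCN1, had 9.28, 9.03 and 8.94 in AMOT hairpin cells and 8.08, 7.96 and 8.31 in YAP hairpin cells, a difference of 0.96 (SE 0.14). At these probes every AMOT hairpin array lay above every YAP hairpin array. FJX1, related to a fly Golgi kinase of planar polarity, stood 0.65 higher (SE 0.10). GADD45A, a stress-response gene that p53 also activates, was the member that ran the other way, with 10.80, 10.68 and 10.76 in AMOT hairpin cells and 11.39, 11.72 and 11.28 in YAP hairpin cells (log2 difference -0.72, SE 0.13). At the probes given, these 5 calls held under each of the 15 alternatives tried.

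The 8 uncalled reporter genes had small fitted differences, which does not show that their levels were equal. Their log2 differences were -0.27 for FOXF2, -0.22 for ASAP1, -0.15 for AMOTL2, -0.02 for F3, 0.05 for LATS2, 0.08 for ARHGEF17, 0.15 for PTPN14 and 0.27 for CRIM1. Further probes of ASAP1 stood at -0.115 and -0.42, neither called. AMOTL2, a member of the angiomotin family and itself a reporter gene, had 7.68, 7.62 and 7.01 in AMOT hairpin cells and 7.46, 7.66 and 7.64 in YAP hairpin cells. The groups overlapped, and the 95% interval of the difference ran from -0.57 to 0.28. Over the whole list the median log2 difference was 0.08, against -0.02 over all genes.

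**Figure D2:**
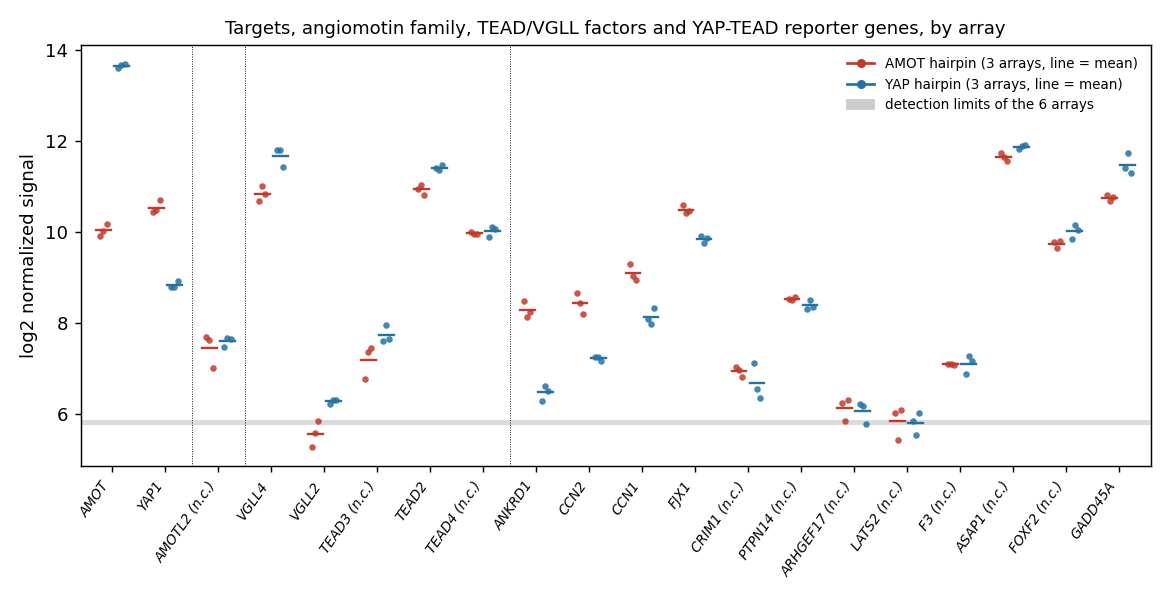
Log2 normalized signal (vertical axis) on each of the 6 arrays for the hairpin targets, the angiomotin family, the TEAD and VGLL factors and the reporter genes, with AMOT hairpin arrays to the left of YAP hairpin arrays, lines at the means of 3 arrays, a grey band over the detection limits, and n.c. for genes not called. AMOT sits near 10 against 13.6 and YAP1 near 10.5 against 8.8, and ANKRD1, CCN2, CCN1 and FJX1 lie higher in AMOT hairpin cells while GADD45A lies lower.

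YAP's partners and their competitors were measured by 6 genes including YAP1. VGLL4, a TEAD cofactor that competes with YAP, averaged 10.83 ± 0.17 in AMOT hairpin cells and 11.67 ± 0.21 in YAP hairpin cells (log2 signal, SD, n = 3 arrays each), a log2 difference of -0.84 (SE 0.14, limma adjusted p = 0.0077). TEAD2, a DNA-binding partner of YAP, was lower by a log2 difference of -0.47 (SE 0.10). VGLL2, another TEAD cofactor, differed by -0.71, with a mean in AMOT hairpin cells under the detection limit and 1 of 3 arrays detected there. The VGLL2 call was lost without YAP hairpin array 2 or 3, and the TEAD2 call without YAP hairpin array 1. TEAD3 stood at -0.54 without passing (adjusted p = 0.099 by limma), and TEAD4 at -0.05 with a 95% interval of -0.28 to 0.17.

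The Hippo kinases and their cofactors held few called genes. Of 17 measured genes 0 were higher, 2 were lower and 15 were not called by limma (11.8% called), and the median was -0.06. The called genes were MOB1B, an activator of the LATS kinases (log2 difference -0.63, SE 0.16), and WWC1, the scaffold protein KIBRA (-0.43, SE 0.10). Both calls were lost without any 1 of AMOT hairpin arrays 1 and 2 and YAP hairpin arrays 1 and 2, and with no filter on dim probes. The kinases STK3 (-0.33, 95% interval -0.57 to -0.09) and STK4 (-0.06, -0.34 to 0.21), their adaptor SAV1 (-0.30, -0.65 to 0.04), NF2 (0.27, -0.20 to 0.73) and LATS2 (0.05, -0.43 to 0.52) did not pass. TAOK1, a kinase upstream of the pathway, had the largest difference on the list, 0.65, with groups that overlapped and an interval of -0.12 to 1.42.

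Genes of the apical polarity complexes and tight junctions, to which angiomotin binds, had 8 of 23 measured members lower and 0 higher at their brightest probes (34.8% called), with a median of -0.13. Among the further probes of the list 2 were called lower and 1 higher, that of the tight junction scaffold TJP1 (0.37, limma adjusted p = 0.028). LLGL1, a basolateral polarity protein, had 9.29, 9.16 and 9.27 in AMOT hairpin cells and 10.41, 10.44 and 10.54 in YAP hairpin cells (log2 difference -1.22, SE 0.09). PARD6A and PARD6G, scaffolds of the Par complex, had differences of -1.02 and -0.77, and cingulin, the tight junction protein encoded by CGN, had -0.83. The remaining 4 were LIN7B (-0.74), SCRIB (-0.54), CGNL1 (-0.37) and PRKCZ (-0.35), and leaving out single arrays brought the count of lower genes down to 5 to 7. LLGL1 also lies within the stretch of chromosome 17 described further on.

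Genes of regulated secretion and synaptic vesicles held several of the largest differences. Of 23 measured members, 14 were lower in AMOT hairpin cells, 0 were higher and 9 were not called (60.9% called), and the median log2 difference was -0.92, against -0.02 over all genes. CHGB, a granin that fills dense-core secretory granules, had 6.76, 6.64 and 6.88 in AMOT hairpin cells and 10.95, 10.99 and 10.94 in YAP hairpin cells. It was 18.4-fold lower in AMOT hairpin cells (log2 difference -4.20, SE 0.10, limma adjusted p = 3.2e-06). SNAP25, a SNARE protein of vesicle fusion, had 6.13, 6.18 and 6.17 in AMOT hairpin cells and 9.29, 9.40 and 9.27 in YAP hairpin cells, a difference of -3.16 (SE 0.09). SYT11, of the synaptotagmin family of vesicle proteins, had 8.49, 8.41 and 8.23 in AMOT hairpin cells and 11.33, 11.29 and 11.40 in YAP hairpin cells, a difference of -2.96 (SE 0.10). For each of these genes the YAP hairpin arrays stood together, well above all AMOT hairpin arrays.

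The other granins ran the same way. SCG3 differed by -2.22 (SE 0.15) and by -1.29 at its other probe, CHGA by -1.78 (SE 0.12) and SCG2 by -1.43 (SE 0.14). SYN1, the vesicle-coating synapsin I, had 7.91, 7.95 and 7.93 in AMOT hairpin cells and 10.30, 10.17 and 9.92 in YAP hairpin cells, a difference of -2.20 (SE 0.12, limma adjusted p = 1.5e-04). Complexin 1 (CPLX1, -1.43), the vesicle GTPase RAB3C (-1.38), synaptophysin (SYP, -1.19), the priming factor UNC13A (-1.15), the neuropeptide precursor VGF (-0.92), the vesicle glycoprotein SV2A (-0.75) and the SNARE protein STX1A (-0.72) made up the 14. Among the members not called were CPE, a prohormone-processing carboxypeptidase (0.14, 95% interval -0.15 to 0.44), VAMP2 (-0.08, -0.40 to 0.24) and SYT1 (-0.11, -0.44 to 0.22). The count of 14 stood under every alternative but the strict detection filter, which tested fewer genes and called 11. On the wild-type arrays CHGB, SNAP25 and the SCG3 probe at -2.22 were detected on 0 of 3, whereas SYT11, SYN1, CHGA and SYP were detected on all 3.

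**Figure D3:**
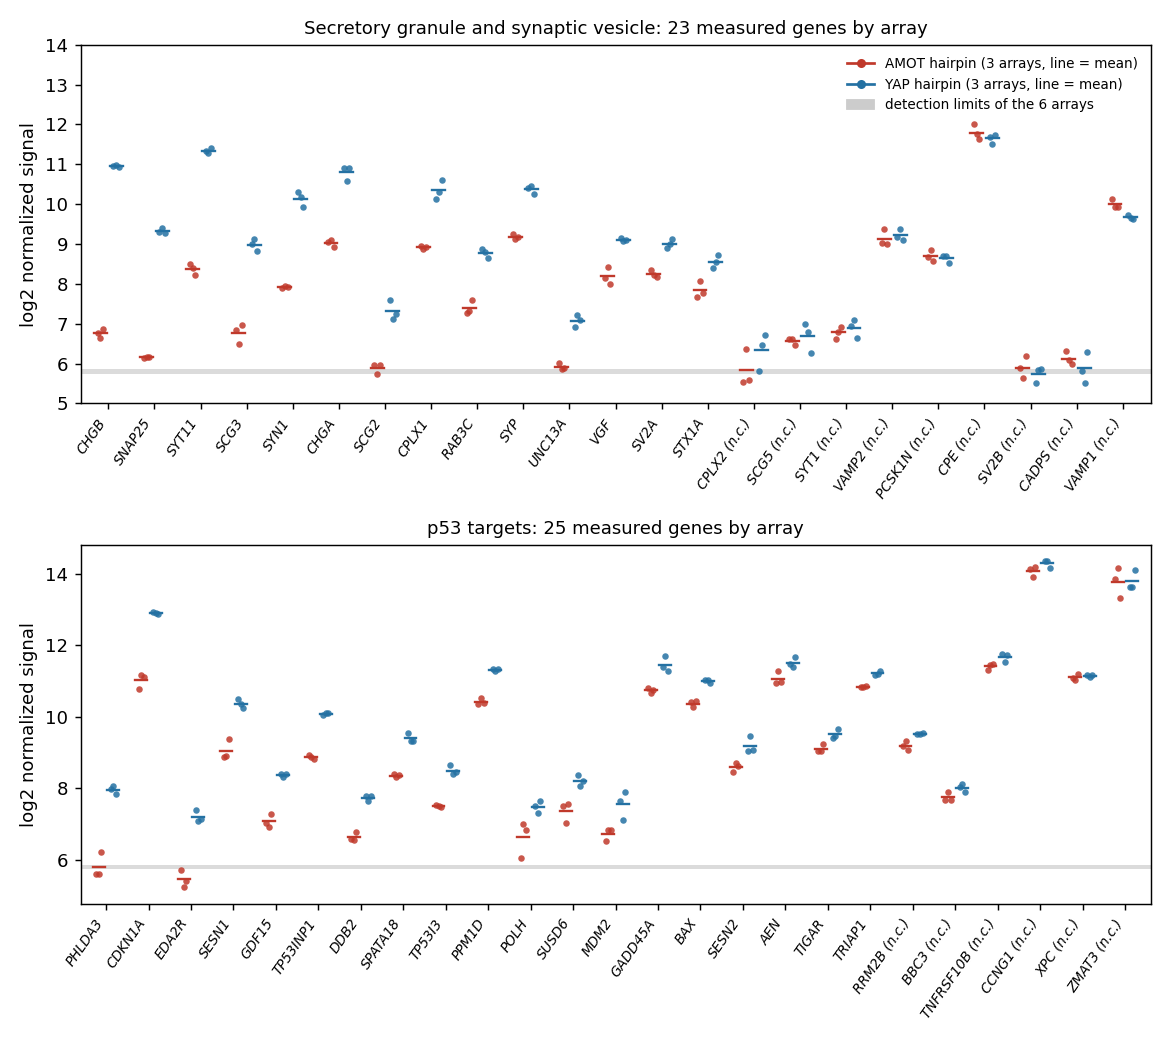
Log2 normalized signal (vertical axis) on each array for the 23 measured genes of secretory granules and synaptic vesicles (upper panel) and the 25 measured p53 target genes (lower panel), AMOT hairpin arrays to the left of YAP hairpin arrays in each pair, with lines at the means of 3 arrays, a grey band over the detection limits and n.c. for genes not called. All 14 called genes above and all 19 called genes below lie lower in AMOT hairpin cells.

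Genes of the neuronal cytoskeleton and axon were divided. Of 25 measured, 11 were lower and 4 higher in AMOT hairpin cells and 10 were not called, with a median of -0.28. Among all genes 23.2% were called, 12.3% lower and 10.9% higher. STMN2, a microtubule-destabilizing protein of growing axons, had 5.86, 6.61 and 6.39 at its brighter probe in AMOT hairpin cells and 9.85, 9.71 and 9.70 in YAP hairpin cells, 11.1-fold lower (log2 difference -3.47, SE 0.19, limma adjusted p = 1.7e-04). Its other probe was detected on 0 of 3 AMOT hairpin arrays and was at least 12.1-fold lower there. ACTL6B, the neuronal subunit of the BAF chromatin remodeller, differed by -2.85 (SE 0.15). Next came CRMP1, a mediator of axon guidance signals (-1.76), the neurofilament gene NEFM (-1.44), the axon-maintaining enzyme NMNAT2 (-1.36) and the growth cone protein BASP1 (-0.94). The remaining lower genes were ENO2 (-0.70), MAPT (-0.60), INA (-0.57), STMN3 (-0.53) and TUBB3 (-0.53), and the MAPT call was lost in 7 of the 15 alternatives, among them the fits without AMOT hairpin array 1 or 2 or any 1 YAP hairpin array.

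Against this direction, DPYSL3, a relative of CRMP1, had 8.06, 8.33 and 7.91 in AMOT hairpin cells and 5.67, 6.13 and 5.85 in YAP hairpin cells, 4.64-fold higher (log2 difference 2.21, SE 0.16). DPYSL3 was detected on 2 of 3 YAP hairpin arrays, with a mean near the detection limit of about 5.82. Its difference was 1.10 without background correction, so the size is uncertain. The adhesion molecule NCAM1 was higher by 0.97 (SE 0.11), the membrane glycoprotein GPM6A by 0.55 and the ubiquitin hydrolase UCHL1 by 0.55. The GPM6A and UCHL1 calls were lost under median scaling, which left 2 higher genes, and that of GPM6A also without AMOT hairpin array 1 or YAP hairpin array 2 or 3. So the genes of this list that were lower and those that were higher both included axonal proteins, and CRMP1 and DPYSL3, of the same protein family, differed in opposite directions.

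SYN1 is a textbook example of a neuronal gene with an RE1 element, the DNA sequence bound by the repressor REST. The promoters of both lists were read for the RE1 letters CAGCACC or, on the other strand, GGTGCTG. These letters stood in 6.2% of all 35116 promoters. Of 19 secretory and vesicle genes with an entry 2 held it, SYN1 and SV2B, and of 18 neuronal cytoskeleton genes 0 did. SYN1, the called gene of these, had its match starting 231 bases before the start, printed here 5′ to 3′ on the minus strand, with the match in capitals (chrX:47620057-47620107).
SYN1: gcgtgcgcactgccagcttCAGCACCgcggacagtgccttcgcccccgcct
The letters describe this window alone. REST itself was detected on 2 of 3 AMOT hairpin arrays and 3 of 3 YAP hairpin arrays and was not called (log2 difference -0.13, SE 0.28, limma adjusted p = 0.79).

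Axon guidance receptors and ligands were lower in 7 of 26 genes and higher in 0, with a median of -0.25. The called share of 26.9% was near the 23.2% of all genes, of which 12.3% were lower. The netrin receptor UNC5A had 7.79, 7.51 and 7.67 in AMOT hairpin cells and 8.77, 8.53 and 8.69 in YAP hairpin cells. The other called genes were the plexins PLXNA1 (-0.73) and PLXNB2 (-0.56), the ephrins EFNB3 (-0.46) and EFNA1 (-0.34), the ephrin receptor EPHA4 (-0.46) and netrin 1 itself (NTN1, -0.41). The count was 3 or 4 on leaving out any single array.

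The list with the highest called share was that of the targets of p53, the tumour suppressor that halts the cell cycle after damage. Of 25 measured genes 19 were lower in AMOT hairpin cells, 0 were higher and 6 were not called (76.0% called), and all 25 log2 differences were below 0, with a median of -0.82. CDKN1A, the cyclin-dependent kinase inhibitor p21, had 10.79, 11.18 and 11.11 in AMOT hairpin cells and 12.93, 12.89 and 12.89 in YAP hairpin cells, a difference of -1.88 (SE 0.12, limma adjusted p = 3.0e-04). PHLDA3, an inhibitor of AKT, had 5.59, 5.58 and 6.20 in AMOT hairpin cells and 7.99, 8.06 and 7.83 in YAP hairpin cells, a fitted difference of -2.17 (SE 0.18). Its mean in AMOT hairpin cells lay under the detection limit of about 5.82, so the size is uncertain. EDA2R, a receptor of the tumour necrosis factor family, was detected on 0 of 3 AMOT hairpin arrays and was at least 2.60-fold lower there. It passed the filter only through the YAP hairpin arrays, so its direction follows from the filter.

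The sestrin SESN1 followed with -1.32 (SE 0.15), and the secreted stress signal GDF15 had 7.02, 6.92 and 7.27 in AMOT hairpin cells and 8.41, 8.32 and 8.39 in YAP hairpin cells, a difference of -1.30 (SE 0.11). TP53INP1 (-1.22), the DNA damage sensor DDB2 (-1.11), SPATA18 (-1.04) and the phosphatase PPM1D (-0.90) were lower by about 2-fold, and TP53I3 lay between SPATA18 and PPM1D. MDM2, the ubiquitin ligase that degrades p53, had 6.51, 6.83 and 6.82 in AMOT hairpin cells and 7.63, 7.12 and 7.88 in YAP hairpin cells, a difference of -0.82 (SE 0.20, limma adjusted p = 0.029). BAX, a killer protein of the mitochondrial membrane, stood at -0.63 (SE 0.09). ZMAT3 stood at -0.02 at its brightest probe with overlapping groups, but its other 2 named probes were called at -1.21 and -1.41, so its probes disagreed. CCNG1 (-0.21, 95% interval -0.48 to 0.06) and XPC (-0.05, -0.26 to 0.16) were not called.

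Across the alternatives the p53 list had 13 to 21 lower genes and 0 higher ones, with the 13 under no filter on dim probes and 14 to 16 when a single array was left out. MDM2, POLH, AEN, TIGAR, TRIAP1 and SESN2 were the genes that lost their calls in several of those. The medians of the list on a scale that also held the wild-type arrays were -0.07 for AMOT hairpin minus wild type and 0.52 for YAP hairpin minus wild type. These contrasts share the wild-type arrays and were not tested here. Of the 20 genes with a promoter entry 1, AEN, held a match to the p53 decamer consensus in its window, against 5.6% of all promoters.

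Cell cycle genes had called shares near that of all genes. Cyclin D1 (CCND1), the cyclin of early G1, averaged 7.17 ± 0.15 in AMOT hairpin cells and 8.945 ± 0.14 in YAP hairpin cells (log2 signal, SD), a difference of -1.78 (SE 0.12, limma adjusted p = 3.4e-04). Its partners and relatives CDK6 (-0.75), CCND3 (-0.75) and CCND2 (-0.38) were also lower, as was the replication factor GINS4 (-0.85), whereas thymidine kinase (TK1) was higher by 0.66. In all, the list of cyclins, G1/S and replication genes had 9 lower, 3 higher and 37 not called of 49 (24.5% called). Among the further probes of its genes 4 were called higher and 1 lower. The CCND2 call was lost whenever any single array was left out.

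Mitotic genes had 10 of 44 members higher and 0 lower at their brightest probes (22.7% called), with a median of 0.25. Among the further probes of these genes 7 were called higher and 1 lower, a probe of FOXM1, a transcription factor of mitotic genes (-0.44). KIF23 (0.56) of the central spindle, AURKA (0.53), BUB1 (0.51) and CDC20 (0.50) of the mitotic checkpoint and its kinases led the 10 higher members. These calls depended on the settings: the count was 0 under median scaling, 3 or 4 on leaving out any single array and 20 without background correction.

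Of 28 measured histone genes, both those transcribed in S phase and replacement histones, 14 were higher in AMOT hairpin cells and 0 lower at their brightest probes, with a median of 0.49. Among the further probes of the list 2 were called higher and 2 lower, the lower being those of the macro-histone gene MACROH2A1 (-0.46 and -0.34). H2BC5 had 9.89, 9.90 and 10.02 in AMOT hairpin cells and 8.89, 8.76 and 8.84 in YAP hairpin cells, a difference of 1.10 (SE 0.09). H4C8 differed by 1.32 (SE 0.11), with 2 of 3 YAP hairpin arrays detected. H2BC4, H3C10 and H2AC6 were detected on 0 of 3 YAP hairpin arrays and were at least 1.90, 1.62 and 1.57-fold higher in AMOT hairpin cells. These 3 count among the 14 but passed the filter only through the AMOT hairpin arrays, so their direction follows from the filter. The brightest genes of the list, among them H2AZ1 (0.16, 95% interval -0.07 to 0.38) and H4C3 (0.08, -0.22 to 0.38), were not called. Histone genes are near-identical copies, so their probes may share transcripts and single genes are uncertain. The count of 14 became 8 to 12 on leaving out single arrays and 8 with the strict detection filter.

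Genes of ribosome biogenesis and MYC had 11 higher and 2 lower of 43 (30.2% called), with a median of 0.19. MYCN, a MYC relative, had 7.25, 6.77 and 7.08 in AMOT hairpin cells and 6.15, 6.33 and 6.29 in YAP hairpin cells, 0.78 higher (SE 0.14). MYC itself was lower, at 11.72, 11.63 and 11.65 in AMOT hairpin cells and 12.12, 12.15 and 12.12 in YAP hairpin cells, a difference of -0.46 (SE 0.08). NOLC1 (0.78) and RRP12 (0.71), nucleolar assembly factors, and RRS1 (0.58) were among the higher genes. The count of higher genes was 3 under median scaling and 4 to 7 when single arrays were left out.

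Stress and metabolic programmes were mixed. Among ATF4 stress genes 7 of 39 were higher and 2 lower (23.1% called, near the 23.2% of all genes). The amino acid transporter SLC7A5 (0.86, SE 0.10) and the cystathionine lyase CTH (0.79) led the higher genes. SESN2 (-0.60) and ATF3 (-0.54) were on the other side, and the count of higher genes was 3 under median scaling. Cholesterol synthesis had 7 of 19 lower and 0 higher (36.8% called, median -0.25). INSIG1, the sterol sensor's retention protein, had 12.05, 11.96 and 11.95 in AMOT hairpin cells and 13.37, 13.22 and 13.32 in YAP hairpin cells (-1.32, SE 0.09, and -1.82 at its other probe). The enzymes ACAT2 (-0.68), SQLE (-0.51) and HMGCS1 (-0.47) followed, and the count of lower genes was 3 or 4 on leaving out a single array. Heat shock proteins had 5 higher and 5 lower of 28 (35.7% called). At the ends stood HSPA6 at 1.12 (SE 0.17) and DNAJB2 at -0.75 (SE 0.09, and 0.14 at its other probe, not called). The 5 higher became 1 under median scaling and 2 to 4 on leaving out a single array, and the 5 lower became 1 to 4, with 1 without any single YAP hairpin array.

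The large constitutive complexes had called shares below that of all genes. Respiratory chain and ATP synthase genes had 3 higher and 3 lower of 69 (8.7% called, median -0.02), and proteasome genes 1 higher and 3 lower of 37 (10.8%, median 0.01). NDUFV3, a subunit of complex I, had 1 probe called lower (-0.52) and 1 called higher (0.91).

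Matrix, adhesion and cytoskeletal genes moved in both directions. Collagens, laminins and integrins had 11 higher and 5 lower of 38 (42.1% called), and the 11 became 7 under median scaling and 6 without AMOT hairpin array 1. LAMC3, a laminin chain, had 10.64, 10.49 and 10.48 in AMOT hairpin cells and 9.30, 9.05 and 9.12 in YAP hairpin cells (1.38, SE 0.11), and the transmembrane collagen COL13A1 differed by 1.24 (SE 0.19). COL5A2 had 5.51, 5.81 and 6.33 in AMOT hairpin cells and 7.85, 7.94 and 8.08 in YAP hairpin cells (-2.07, SE 0.20). On AMOT hairpin arrays 1 and 2 it lay below the detection limit of 5.86, so the size is uncertain. COL3A1, of fibrillar type III collagen, was detected on 0 of 3 AMOT hairpin arrays and was at least 2.30-fold lower there. It passed the filter only through the YAP hairpin arrays, so its direction follows from the filter. Of the fibroblast markers that were measured, COL3A1 was thus lower, LUM was higher (0.77, with 1 of 3 YAP hairpin arrays detected) and COL1A1 was not called (-0.13).

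Among epithelial and mesenchymal adhesion genes 4 of 21 were higher, the hyaluronan receptor CD44 (1.25, SE 0.14), ALCAM (1.21, SE 0.12), the epithelial adhesion molecule EPCAM (1.02, SE 0.11) and vimentin (VIM, 0.72, SE 0.11). Both epithelial and mesenchymal markers thus lay among the higher genes, and these 4 calls held without any 1 array. The 3 lower genes were KRT8 (-0.59), CD24 (-0.49) and ZEB2 (-0.40). Without YAP hairpin array 1, 0 of these were called, and over the 15 alternatives the ZEB2 call was lost in 7 and the CD24 call in 4. Actin and SRF targets had 2 higher and 3 lower of 31 (16.1% called), with smooth muscle actin, ACTA2, at -1.10 (SE 0.09) and the calponin CNN2 at 0.74 (SE 0.10).

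Signalling pathways of development held genes in both directions. In the Notch pathway 6 of 20 were lower and 2 higher (40.0% called). The ligand JAG1 differed by -0.98 (SE 0.16) and its relative JAG2 by 0.61 (SE 0.09), in opposite directions. NOTCH3 (-0.56) and the ligand DLL1 (-0.60) were lower and the target HES5 was higher (0.83), while the targets HEY1 (-0.39) and HEY2 (-0.36) lost their calls in most fits that left out an array. In the Wnt pathway 7 of 29 were lower and 4 higher (37.9% called), and the 4 became 2 under median scaling and 1 without YAP hairpin array 1. SFRP1, a secreted Wnt inhibitor, had 8.22, 7.96 and 7.95 in AMOT hairpin cells and 6.14, 6.68 and 6.29 in YAP hairpin cells (1.67, SE 0.16), against -0.95 for the receptor-removing ligase ZNRF3 and -0.74 for the receptor FZD2.

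BMP, ID and SMAD genes had 3 higher and 3 lower of 19 (31.6% called), the 3 higher becoming 1 under median scaling or without AMOT hairpin array 1, with the inhibitor of differentiation ID3 at 0.90 (SE 0.10) and the ligand BMP2 at -0.96 (SE 0.13). Interferon-stimulated genes had 4 lower and 3 higher of 23 (30.4% called). The tetherin gene BST2 (-1.10), IFITM1 (-1.04) and IRF1 (-1.02) were lower and OAS3 (0.71), PARP9 (0.61) and ISG15 (0.58) higher, so the list held both directions. OAS1, the other lower gene (-0.59), lost its call in 11 alternatives. Of the 8 measured kidney lineage markers WT1 (0.62), EYA1 (0.44) and HOXD11 (0.37) were higher and 0 were lower (37.5% called). The count was 1 under median scaling and without YAP hairpin array 1 or 2, and the HOXD11 call was lost in 8 alternatives.

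**Figure D4:**
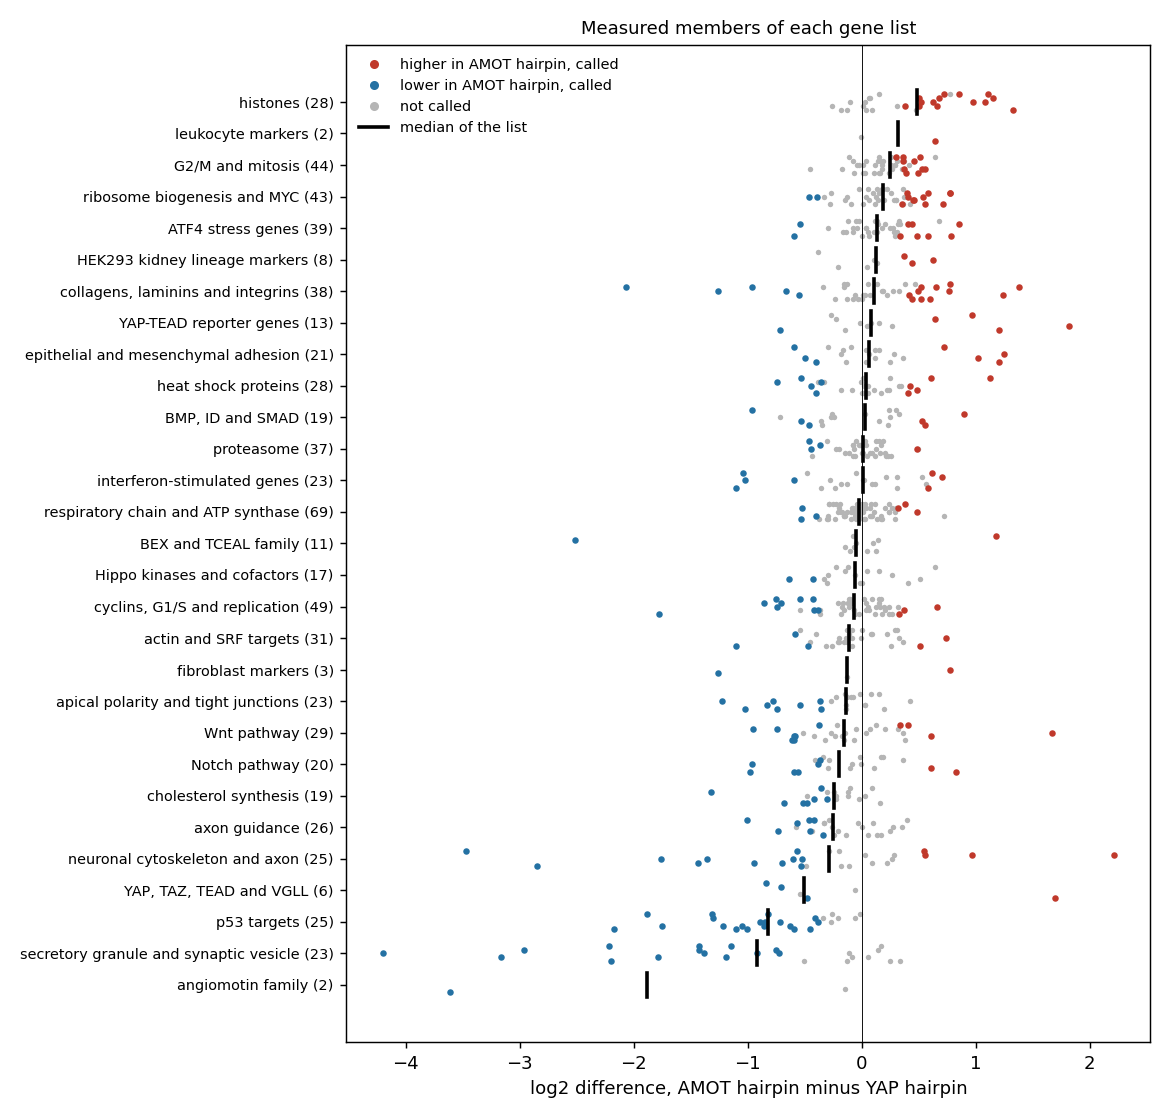
Log2 difference, AMOT hairpin minus YAP hairpin (horizontal axis), for every measured member of each gene list (rows, number of measured genes in brackets), with called genes coloured and a bar at the median of the list. The p53 targets and the secretory and synaptic vesicle genes lie to the left with medians of -0.82 and -0.92, histones to the right with 0.49, and most other lists around 0.

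Genes outside the lists held several of the largest differences. Higher in AMOT hairpin cells were CYP2E1, the ethanol-oxidizing cytochrome P450, with 10.39, 10.56 and 10.19 in AMOT hairpin cells and 7.99, 7.86 and 7.88 in YAP hairpin cells (5.54-fold, log2 difference 2.47, SE 0.12, limma adjusted p = 1.0e-04). CYP4X1, another cytochrome P450, was 4.05-fold higher, with a log2 difference of 2.02 at the probe named by the rule and 1.47 at its other. The zinc finger gene ZSCAN5A (2.22), the small GTPase RAC2 (2.06), the dachshund family gene DACH2 (1.91), the variant U1 small nuclear RNA RNVU1-7 (1.87), the growth hormone receptor GHR (1.80), the collagen receptor kinase DDR2 (1.78) and the centromere gene ITGB3BP (1.76) followed. For RAC2 and DACH2 the mean in YAP hairpin cells lay under the detection limit. ZSCAN5A was detected on 2 of 3 YAP hairpin arrays and stood at 1.13 without background correction, so its size is uncertain. TAF5L, of the SAGA acetyltransferase complex, rested on unequal arrays, 8.92, 6.73 and 8.99 in AMOT hairpin cells and 5.75, 6.37 and 6.26 in YAP hairpin cells. Its fitted difference of 2.09 (SE 0.57, limma adjusted p = 0.041) lost the call in 8 alternatives, and its other probe was called at 1.05 (SE 0.11).

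Undetected on all 3 YAP hairpin arrays and called higher in AMOT hairpin cells were 130 probes, 70 of them named. The largest bounds among these were at least 4.26-fold for a probe of HORMAD1, a protein of meiotic chromosomes, 3.73-fold for MAL2, of membrane transcytosis, and 3.31-fold for the long non-coding RNA LINC01139. A probe of the nuclear body gene SP110 was at least 2.89-fold, that of C10orf88B at least 2.86-fold and a probe of the protocadherin PCDH10 at least 2.47-fold higher. These bounds are those of single probes. The other HORMAD1 probe was at least 1.41-fold higher and another SP110 probe at least 2.66-fold. The remaining probes of SP110 and PCDH10 were detected on 3 of 3 YAP hairpin arrays and were called higher by 1.27 and 1.02 on the log2 scale.

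Lower in AMOT hairpin cells, beside the neuronal genes above, was GALC, the lysosomal galactosylceramidase, with 5.93, 5.46 and 5.56 in AMOT hairpin cells and 9.08, 9.11 and 9.23 in YAP hairpin cells (fitted difference -3.49, SE 0.14, limma adjusted p = 4.0e-05), the AMOT hairpin mean lying under the detection limit. TCEAL7, of a family of elongation factor-like genes on chromosome X, had 8.23, 8.44 and 8.15 in AMOT hairpin cells and 10.77, 10.74 and 10.87 in YAP hairpin cells (-2.51, SE 0.11). Of the 11 measured BEX and TCEAL genes, which lie near each other, TCEAL7 was the only one called lower at its brightest probe. BEX5 was called higher (1.18) and 9 were not called (18.2% called). A dimmer probe of BEX1, taken up below, was also called lower (-6.24). The RNA-binding protein CELF3 (-2.23) and RUNDC3A (-2.30, its AMOT hairpin mean under the detection limit) completed the 12 largest.

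Undetected on all 3 AMOT hairpin arrays and called lower were 104 probes, 54 of them named. These entered only through the YAP hairpin arrays, so their direction too follows from the filter. A probe of BEX1, a small protein named for its expression in brain, averaged 4.98 ± 0.02 in AMOT hairpin cells and 11.23 ± 0.17 in YAP hairpin cells (log2 signal, SD, n = 3 arrays each), at least 42.5-fold lower, but the other BEX1 probe did not differ past the threshold (-0.10, 95% interval -0.41 to 0.21). SF1, a splicing factor of the branch point, showed the same kind of disagreement: its probes stood at -3.27, -0.09 and 0.79. For these genes the difference is that of a probe and not of the gene as a whole. The sorting receptor SORCS1 was at least 9.46-fold, the peptide hormone somatostatin (SST) at least 4.28-fold, the zinc finger gene INSM2 at least 3.47-fold and the elastic fibre protein EFEMP2 at least 3.28-fold lower.

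Neighbouring genes differed together along 3 chromosomes. A running median over 21 neighbouring measured genes passed 0.5 on the log2 scale, in either direction, on chromosomes 17, 10 and 6 only. Stretches were picked by these same differences. Their medians and the direction of their called genes therefore follow in part from the choice and are not separate evidence. On chromosome 17 the windows past 0.5 gave separate stretches of 66, 30 and 45 genes, with medians of -0.54, -0.38 and -0.50. These were joined, with the genes between them, into a single stretch. It runs from SNORD65 (starting at 16441226, GRCh38.p14) to PSMB3 (ending at 38764225) and holds 144 genes. Of these 0 were higher and 81 lower, with 125 below 0 and a median of -0.50. The lowest running median, -0.82, lay near SLC47A1. The endocytic adaptor EPN2 (-1.53), the ubiquitin ligase subunit GID4 (-1.52) and TOM1L2 (-1.38) had the largest differences of the stretch. Over the whole chromosome 177 of 683 genes were lower and 45 higher (32.5% called). Of all genes 23.2% were called, 12.3% lower and 10.9% higher. On leaving out a single array, 63 to 72 genes of the stretch were lower.

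On chromosome 6 the 32 genes from EPM2A to TMEM242 (145383353 to 157323519) held 13 lower and 0 higher, with a median of -0.47. RAET1G and ULBP2, ligands of the natural killer cell receptor NKG2D, had -1.36 and -1.26, and RGS17, a regulator of G protein signalling, had -0.97. Chromosome 10 ran the other way, with 113 of its 461 genes higher and 16 lower and a median of 0.17. Its called share was 28.0%, with 28.1% on chromosomes 6 and 22 and 23.2% over all genes. The 21 genes of chromosome 10 from FRMD4A to NEBL (13643706 to 21293050) held 10 higher and 0 lower, with a median of 0.53, VIM among them. CYP2E1, ANKRD1 and COL13A1 are also on chromosome 10. Under median scaling 54 genes of chromosome 10 were higher.

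On the scale that held all 9 arrays, the median of the chromosome 17 stretch was -0.40 for AMOT hairpin minus wild type and 0.00 for YAP hairpin minus wild type. For the chromosome 6 stretch these medians were -0.34 and 0.15, and for the stretch from FRMD4A to NEBL 0.45 and 0.17. The contrasts share the wild-type arrays and are given as values. A list member within a stretch shares its position with its neighbours, as LLGL1 and PSMB3 do on chromosome 17 and VIM on chromosome 10, and what part position has in the difference of any gene was not tested.

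**Figure D5:**
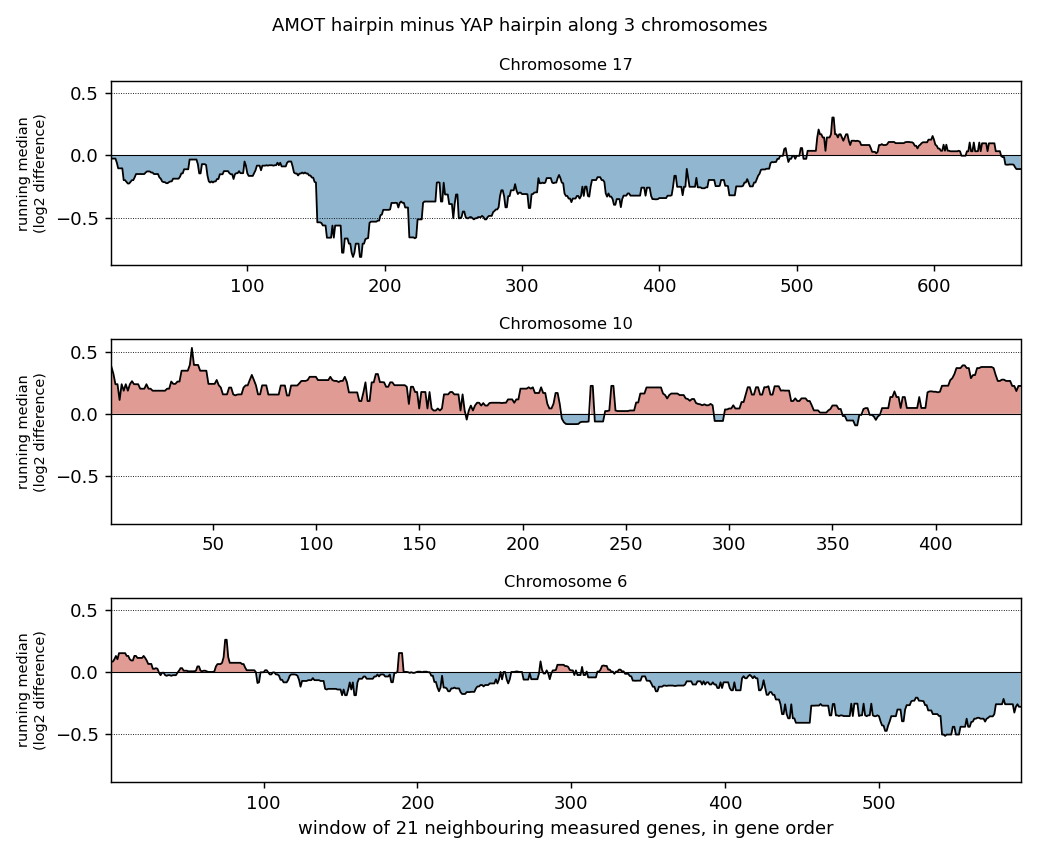
Running median of the log2 difference, AMOT hairpin minus YAP hairpin (vertical axis), over windows of 21 neighbouring measured genes in gene order (horizontal axis) on chromosomes 17, 10 and 6, with dotted lines at -0.5 and 0.5. Chromosome 17 falls to -0.82 near SLC47A1, chromosome 10 reaches 0.53 near NMT2, and chromosome 6 reaches -0.51 towards its end.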

How the data were processed

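The authors deposited a table of bead-summarised intensity values on a linear scale, not background-corrected or normalized, with a detection p-value beside each intensity, per the file headers. Their second deposited table holds normalized intensity values for 20062 probes and served as an alternative. The members and gene lists were chosen with earlier results of these data known.

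Limma 3.58.1 under R 4.3.3 turned the intensity values of the 6 hairpin arrays into log2 signals (neqc: normal-exponential background correction with negative controls inferred from the detection p-values, offset 16, quantile normalization, log2). A linear model with 1 mean per group had 4 residual and 3.44 prior degrees of freedom. Limma's moderated 2-sided test was adjusted by Benjamini-Hochberg over 21238 probes. Differences are AMOT hairpin minus YAP hairpin, with standard errors of the fit, and the number of arrays limits the precision. Quantile normalization makes differences relative, so a change in total RNA would not be seen.

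A probe undetected on all arrays of a group has a bound: the bright mean over the dim group's mean of, per array, the higher of the detection limit and the signal. Genes were named by a fixed rule: the targets, the 12 largest differences each way measured on both sides, the 6 largest bounds each way, and up to 4 called members of each list in each direction. Other called members of short lists, and of the p53, secretory and axon lists, were named after their values were seen. A gene in a list is its probe with the highest mean. Of the tested probes with 1 symbol, 15050 of 15058 matched the RefSeq gene table of GRCh38.p14, and positions are those of genes. The fit was tested on simulated data. The main fit did not pair the arrays by replicate number. Alternatives covered scaling, background, offset, filters, wild-type arrays, the authors' normalized table, a replicate block and each array left out.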

Additional observations from a re-analysis of the deposited data

How the results depend on the processing

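Under the 15 alternatives, no named gene or list member changed direction where it was called in the main fit or in that alternative. Direction was not followed for members called in neither. The 4056 calls became 2657 with no filter on dim probes (1306 higher in AMOT hairpin cells, 1351 lower), which tests more probes, and 2296 to 2945 on leaving out 1 array (1174 to 1442 higher, 1122 to 1551 lower), with fewer arrays; the fewest stood without YAP hairpin array 1. Median scaling gave 1098 higher probes in place of 2005, and the cause was not tested. The count of probes at least 2-fold higher or lower in AMOT hairpin cells, 229 and 219, fell to 44 and 74 without background correction, 47 and 73 in the authors' normalized table, 115 and 125 with an offset of 50, and 127 and 128 with detection p under 0.01 on all 6 arrays. Without background correction 26 of 37 named differences shrank by over 1.5 times, for example CHGB at -3.12, ANKRD1 at 1.00 and SNAP25 at -1.91, so sizes for dim genes depend on that step. The 14 histone genes higher in AMOT hairpin cells became 8 under the strict detection filter and 8 to 12 with an array left out. Deviations from the group means correlated at 0.0016, -0.099 and -0.14 for same-numbered arrays, and at -0.026 to 0.13 for unlike-numbered ones. The main fit took the arrays as unpaired. Whether same-numbered arrays came from matched experiments is not settled by these values. The replicate block left 2 residual degrees of freedom and called 2351 probes (1186 higher, 1165 lower) and 9 histone genes. In the 15 alternatives the lower counts of the secretory, neuronal cytoskeleton and p53 lists and both reporter counts stayed within 1.5 times of those reported. Signal near background limits probes detected on part of the arrays.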

Other observations

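Of the 2980 genes with several tested probes, 981 had at least 1 called probe, 278 had all their probes called in the same direction, and 2, SF1 and NDUFV3, had a probe called in each direction. Several genes lower in AMOT hairpin cells than in YAP hairpin cells were detected on 0 of 3 wild-type arrays, among them the neuronal genes ACTL6B, NMNAT2, CELF3 and RUNDC3A, the axon guidance receptor UNC5A, the hormone SST and the stress signal GDF15. On the higher side, RAC2, MAL2, LINC01139 and CD44 were also detected on 0 of 3 wild-type arrays and on 3 of 3 AMOT hairpin arrays. The named genes of this paragraph were picked after their values were seen.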
